A study of Mus musculus with 8 samples.

Results

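The 9 genes described here encode enzymes that build ceramide and turn it into sphingomyelin or glucosylceramide: *Sptlc1*, *Sptlc2*, *Cers2*, *Cers4*, *Cers5*, *Cers6*, *Degs1*, *Ugcg* and *Sgms1*. They were chosen by gene symbol, with earlier results of these data known, and are 9 of the 16539 symbols in the count table. All 9 passed the filter on low counts. Livers of *Apoe*-/- mice were sequenced, 4 given vehicle and 4 given isoginkgetin (ISOGK), a plant biflavonoid that the study presents as an inhibitor of the enzyme ACLY, with 1 library per mouse. Every mouse in both groups lacked *Apoe* by its label, which raises plasma cholesterol, and was on a Western diet. The drug was given by intraperitoneal injection over 8 weeks at a daily dose of 20 mg/kg, and the vehicle mice are the columns named for the solvent DMSO. The sex and age of the sequenced mice are not given in the sources used here.

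Ceramide is made in the endoplasmic reticulum. Serine palmitoyltransferase joins serine to a fatty acyl-CoA, ceramide synthases attach a second fatty acid whose length depends on the synthase, and a desaturase completes the molecule. Ceramide then becomes sphingomyelin, which is carried in membranes and lipoproteins, or glucosylceramide, the root of most glycosphingolipids, and in the liver very-long-chain and C16 ceramides are the products of different synthases.

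Of the 9 genes, 1 fell with ISOGK: *Cers6*, the ceramide synthase that favours palmitoyl-CoA and so makes C16 ceramide. Its mean level in ISOGK mice was 60.1% of that in vehicle mice. The other 8 genes passed no test, and their estimated log2 fold changes lay between -0.22 and 0.07. The quasi-likelihood test of edgeR was run on each gene, and a gene was called where the Benjamini-Hochberg adjusted p over all 12306 tested genes was under 0.05. By that rule 7.59% of all tested genes were called, 4.14% higher and 3.45% lower with ISOGK, so 1 call among 9 genes (11.1%) is near the share among all genes. The median log2 fold change was -0.106 over the 9 genes and 0.00179 over all tested genes, and 4 of the 9 had an estimate above 0. An absolute log2 fold change over 1, the study's second threshold, was reached together with the first by 1.63% of all genes and by 0 of the 9.

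The region upstream of *Cers6* is shown because this was the gene that moved. *Cers6* lies on chromosome 2, from 68861441 to 69114282 on the plus strand (GRCm38, GENCODE), and the 250 bases before its start, at chr2:68861191-68861440, are from RefSeq (GRCm38.p6). The capitals mark a CCAAT box and an E box, CACGTG, which begin 48 and 22 bases before the start.
Cers6 upstream: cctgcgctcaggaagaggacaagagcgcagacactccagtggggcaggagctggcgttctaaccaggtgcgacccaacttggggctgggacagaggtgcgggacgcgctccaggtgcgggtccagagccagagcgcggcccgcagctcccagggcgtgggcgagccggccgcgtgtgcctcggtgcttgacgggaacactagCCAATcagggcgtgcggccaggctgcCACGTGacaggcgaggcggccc

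RefSeq promoter windows run from 250 bases before each start to 50 after it, 300 bases in all. That of *Cers6* is 70% G or C and holds 28 CpG pairs, against medians of 67.7% and 25 over the first listed window of each of the 9 genes and of 52.7% and 7 over all 32817 windows. The 4 motifs below were picked after the values had been seen and were searched on both strands in the 13 windows that the table lists for the 9 genes. CACGTG, which reads the same on both strands, was in 3 of the 13 windows (*Cers2*, *Cers6* and *Degs1*) and in 7.15% of all windows. CCAAT was in 5 of the 13 (*Sptlc1*, *Sptlc2*, *Cers2*, *Cers6* and *Sgms1*) and in 37.4% of all windows. GGGCGG was in 8 of the 13, of every gene but *Cers6* and *Degs1*, and in 35.6% of all windows, and TATAAA was in 1 of the 13 (*Sgms1*) and in 13.6% of all windows. A match of letters is a description and shows no binding.

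Between 17457015 and 24461698 reads per library were counted on named genes, and the totals of the groups overlapped. The targeted gene, *Apoe*, had 3252 to 6489 counts per library. No library here is from mice with intact *Apoe*, so these counts cannot show the deletion, which is known from the labels. In vehicle mouse 4, 10 of 10 skeletal muscle markers were at their highest, with 27 to 451 counts there and no more than 9 elsewhere. No marker of that list passed the filter. Fits without this mouse are given below for some genes, and ratios, shares and marker sums were not repeated without it. Levels are in CPM, the usual counts of a gene scaled to one common library size, with TMM factors. These factors did not overlap between the groups, at 1.017 to 1.089 in vehicle mice and 0.883 to 1.014 in ISOGK mice. The mice are not said to be littermates or otherwise matched. Each edgeR p-value sets the group difference against variation between these mice, estimated with information shared over genes.

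**Figure D1:**
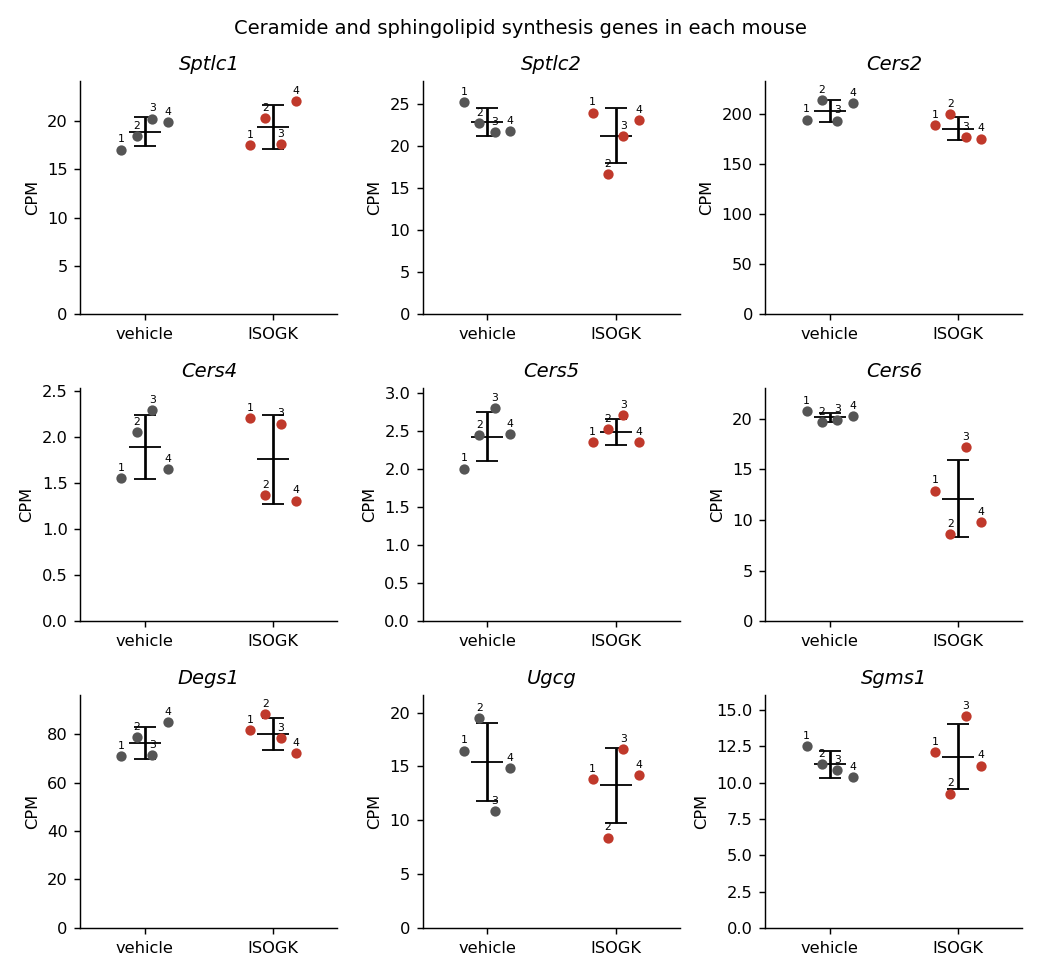
Level of each of the 9 genes in each mouse, in CPM on axes that start at 0. Each point is 1 mouse, labelled with its replicate number, and the lines are the mean ± SD of the 4 mice per group. Only the *Cers6* panel shows groups that do not overlap.

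*Sptlc1* and *Sptlc2* encode the subunits of serine palmitoyltransferase, the enzyme of the first and rate-limiting step. *Sptlc1* was at 17.01, 18.4, 20.2 and 19.9 CPM in vehicle mice 1 to 4 and at 17.5, 20.3, 17.6 and 22.1 CPM in ISOGK mice 1 to 4. The groups overlapped, with a log2 fold change of 0.03 (95% interval -0.20 to 0.27, edgeR adjusted p = 0.885). *Sptlc2* was at 25.2, 22.8, 21.6 and 21.8 CPM in vehicle mice and at 23.98, 16.6, 21.2 and 23.1 CPM in ISOGK mice. ISOGK mouse 2 was the lowest of the 8 and the other 3 lay among the vehicle mice or just under them. The log2 fold change of *Sptlc2* was -0.11 (95% interval -0.37 to 0.16, edgeR adjusted p = 0.642). The intervals of both subunits leave out a change by a factor of 2 in either direction. The log2 ratio of *Sptlc2* to *Sptlc1* per length was -1.09 ± 0.215 (SD, n = 4) in vehicle mice, which overlapped the ISOGK mice at -1.24 ± 0.318.

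Ceramide synthases attach the second acyl chain, and 4 of them are among the 9 genes. *Cers2*, which makes very-long-chain ceramides and is the main hepatic synthase, was at 193.9, 213, 193.1 and 210.3 CPM in vehicle mice. In ISOGK mice it was at 188.9, 199.8, 176.5 and 175.1 CPM. ISOGK mouse 2 stood among the vehicle mice and the other 3 stood below them. The log2 fold change of *Cers2* was -0.13 (95% interval -0.32 to 0.06, edgeR adjusted p = 0.401).

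*Cers4* and *Cers5* were the least abundant of the 9. *Cers4*, a synthase of long-chain ceramides, had 25 to 59 counts per library and lay at 1.56 to 2.30 CPM in vehicle mice and at 1.31 to 2.21 CPM in ISOGK mice. *Cers5*, which like *Cers6* makes C16 ceramide, had 40 to 72 counts and lay at 2.01 to 2.80 CPM with vehicle and at 2.35 to 2.71 CPM with ISOGK. The ranges of the groups overlapped for both genes. At this depth the intervals were wide, with a log2 fold change of -0.11 for *Cers4* (95% interval -0.65 to 0.44) and of 0.03 for *Cers5* (-0.37 to 0.43). Their edgeR adjusted p were 0.831 and 0.942.

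*Cers6* was at 20.7, 19.7, 19.9 and 20.3 CPM in vehicle mice 1 to 4, from 413, 497, 511 and 454 counts. In ISOGK mice 1 to 4 it was at 12.9, 8.60, 17.2 and 9.74 CPM, from 263, 163, 304 and 186 counts. Every ISOGK mouse was below every vehicle mouse, with ISOGK mouse 2 lowest and ISOGK mouse 3 nearest the vehicle mice. Such a separation downward was seen in 7.36% of all tested genes, and a separation in either direction in 15.3%. The vehicle mean was 20.1 ± 0.465 CPM (SD, n = 4) and the ISOGK mean 12.1 ± 3.84 CPM. The log2 fold change was -0.73 ± 0.181 (SE), with a 95% interval from -1.13 to -0.34 and an edgeR adjusted p of 0.0322. A two-sided exact permutation test on log2 CPM gave p = 0.0286, the smallest that 4 against 4 mice can give.

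The 4 vehicle mice lay close together for *Cers6*. Their coefficient of variation was 2.31%, less than the 4.63% that counting error alone gives at these counts, while the ISOGK mice had 31.7% against 6.77% from counting. The coefficient was higher with ISOGK than with vehicle in 7 of the 9 genes and in 68.1% of all tested genes, and no test of this was made. Over the genes past a minimum count in each pair, the ISOGK libraries also differed more from each other. The chi-square per gene, scaled by library totals without TMM, was 33.09 to 99.8 between ISOGK pairs against 18.12 to 33.61 between vehicle pairs. The highest values were in pairs with ISOGK mouse 4, which had the lowest TMM factor (0.883). The call of *Cers6* was kept in all 8 alternative ways of testing the 8 mice, with log2 fold changes from -0.854 to -0.735 and adjusted p from 0.00366 to 0.0358. It was lost in 6 of the 8 fits that left out 1 mouse: without each of vehicle mice 1 to 4 (log2 fold changes of -0.721, -0.747, -0.741 and -0.732, adjusted p of 0.0786, 0.0856, 0.0726 and 0.0711), without ISOGK mouse 2 (log2 fold change -0.602, adjusted p = 0.0703) and without ISOGK mouse 4 (-0.645, adjusted p = 0.0734). Without ISOGK mouse 3 the log2 fold change was -0.954 and the adjusted p 0.00367.

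**Figure D2:**
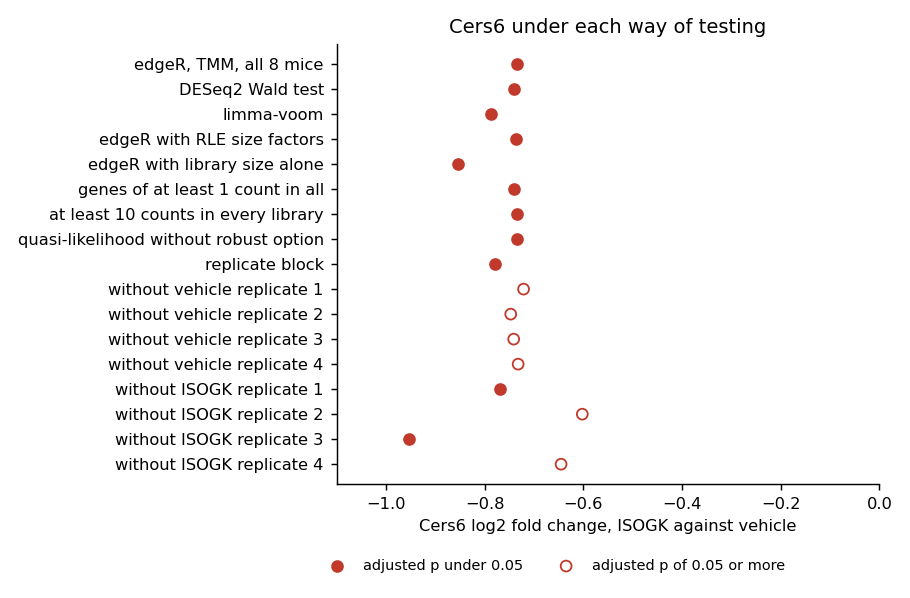
Log2 fold change of *Cers6*, ISOGK against vehicle, in each of 17 fits, on the horizontal axis. Filled points have an adjusted p under 0.05 and open points do not, and all points are below 0, from -0.954 to -0.602.

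*Degs1* encodes the desaturase that turns dihydroceramide into ceramide. It was at 70.8, 78.6, 71.4 and 84.9 CPM in vehicle mice and at 81.6, 88.2, 78.4 and 72.2 CPM in ISOGK mice, and the groups overlapped. The log2 fold change was 0.07 (95% interval -0.14 to 0.28, edgeR adjusted p = 0.717). With *Cers2* it was the most deeply counted of the 9, with at least 1378 counts in every library.

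*Ugcg*, the synthase of glucosylceramide, and *Sgms1*, a Golgi synthase of sphingomyelin, take ceramide onward. *Ugcg* was at 16.5, 19.5, 10.8 and 14.9 CPM in vehicle mice and at 13.8, 8.39, 16.6 and 14.2 CPM in ISOGK mice. It varied widely within both groups, with coefficients of variation of 23.4% and 26.1%. Its log2 fold change was -0.22 (95% interval -0.70 to 0.26, edgeR adjusted p = 0.58). *Sgms1* was at 12.5, 11.3, 10.9 and 10.4 CPM in vehicle mice and at 12.1, 9.24, 14.6 and 11.2 CPM in ISOGK mice. The vehicle range lay inside the ISOGK range, and the log2 fold change was 0.07 (95% interval -0.24 to 0.38, edgeR adjusted p = 0.82). The log2 ratio of *Ugcg* to *Sgms1* per length was 0.435 ± 0.331 with vehicle and 0.153 ± 0.204 with ISOGK, and the groups overlapped. *Sgms1* is not the main sphingomyelin synthase by level here: *Sgms2*, the synthase of the plasma membrane, was at 6.78 ± 1.26 CPM per kilobase in vehicle mice against 2.79 ± 0.226 for *Sgms1* and 3.84 ± 0.900 for *Ugcg*. Against *Sgms1* and *Sgms2* summed, a ratio added after the values had been seen, *Ugcg* stood at a log2 ratio of -1.34 ± 0.455 with vehicle and -1.59 ± 0.517 with ISOGK, again with overlap. In ISOGK mouse 2, *Sptlc2*, *Cers6*, *Ugcg* and *Sgms1* were at their lowest within the ISOGK group and *Cers2* and *Degs1* at their highest, and in ISOGK mouse 3 *Cers5*, *Cers6*, *Ugcg* and *Sgms1* were at their highest.

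**Figure D3:**
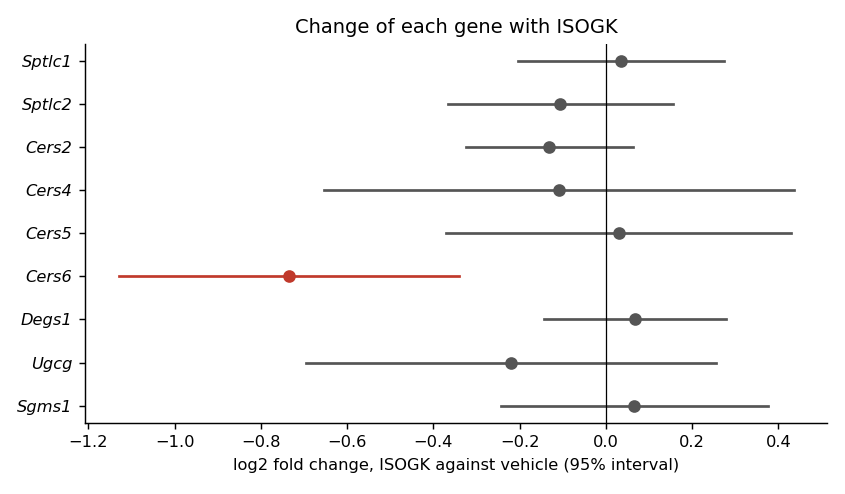
Log2 fold change of each of the 9 genes, ISOGK against vehicle, with its 95% interval from edgeR. The interval of *Cers6* (red), from -1.13 to -0.34, lies below 0, and those of the other 8 genes cross it.

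Levels between genes were compared per length, as CPM per kilobase of the principal transcript. In vehicle mice the order ran from *Cers2* (91.4 ± 4.79, n = 4) and *Degs1* (37.3 ± 3.24) through *Sptlc1* (7.25 ± 0.563), *Ugcg* (3.84 ± 0.900) and *Sptlc2* (3.41 ± 0.247) to *Cers6* (2.86 ± 0.0660), *Sgms1* (2.79 ± 0.226), *Cers5* (1.16 ± 0.156) and *Cers4* (0.200 ± 0.0367). The ranges of *Ugcg* and *Sptlc2* overlapped, as did those of *Cers6* and *Sgms1*, and the other neighbours in the order did not. In ISOGK mice *Cers6* was at 1.72 ± 0.546 CPM per kilobase, and its range still overlapped that of *Sgms1*. Per length, *Cers2* made up 95.6% ± 0.287 of the counts of the 4 ceramide synthases with vehicle and 96.4% ± 0.838 with ISOGK. The share of *Cers6* was 3.22%, 2.78%, 3.09% and 2.91% in vehicle mice 1 to 4 and 2.07%, 1.32%, 2.92% and 1.70% in ISOGK mice 1 to 4. This share overlapped between the groups because ISOGK mouse 3 lay within the vehicle range. The log2 ratio of *Cers6* to *Cers2* overlapped likewise, at -5.0 ± 0.0954 with vehicle and -5.65 ± 0.497 with ISOGK.

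**Figure D4:**
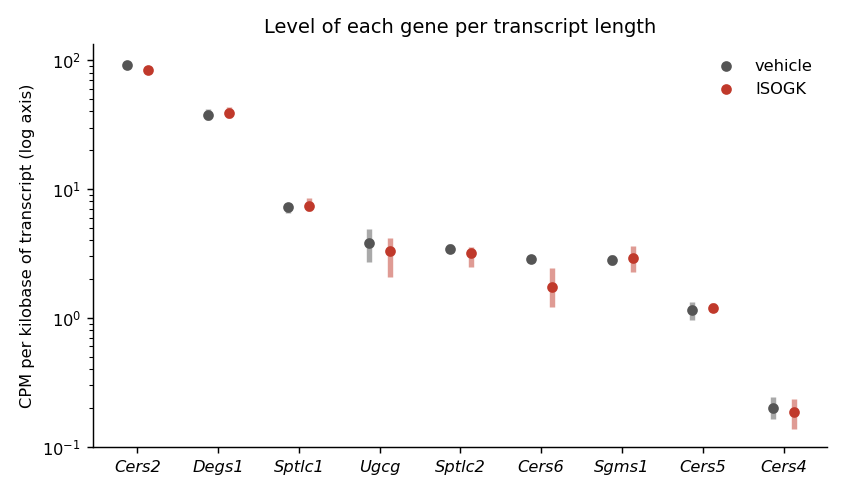
Level per kilobase of principal transcript for the 9 genes in vehicle (grey) and ISOGK (red) mice, on a log axis. Points are means of 4 mice and bars run from the lowest to the highest mouse, with *Cers2* highest at 91.4 and *Cers4* lowest at 0.200 CPM per kilobase in vehicle mice.

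The tested genes whose log2 CPM ran most like *Cers6* over the 8 mice were *Tbc1d8b* and *Atm*, the kinase of the DNA damage response, both with a Pearson r of 0.977 over 8 mice. These r are a description, since the 2 genes were picked as the highest of 12306 and the points share library and group. *Atm* was at 6.27, 6.76, 7.44 and 6.07 CPM in vehicle mice and at 4.51, 2.64, 5.71 and 3.30 CPM in ISOGK mice, and *Tbc1d8b* at 12.3 to 14.5 and at 7.76 to 11.3 CPM. Neither was called, with edgeR adjusted p of 0.0605 and 0.0637. Between *Cers6* and the other 8 genes, r over the same mice lay between -0.49 (*Sptlc1*) and 0.593 (*Ugcg*).

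Reads of 50 bases from *Cers6*, *Sptlc1*, *Sptlc2*, *Cers5*, *Ugcg* and *Sgms1* would match no other annotated transcript exactly. For *Cers4*, 9.42% of such positions occur in another gene, for *Cers2* 1.20% and for *Degs1* 0.45%, and 0 occur in another of the 9. *Cers2* overlaps *Setdb1* on the opposite strand, which had 348 to 484 counts per library. Whether counting used strand is not given in the sources used here.

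Beyond the 9 genes, 69 other genes of sphingolipid metabolism were listed, of which 49 could be tested, 16 had too few counts (at most 14 in any library) and 4 were not analysed here. Of the 49, 1 rose, 3 fell and 45 were not called, so 8.16% were called against 7.59% of all tested genes. An unadjusted p under 0.05 was reached by 13 of the 49 (26.5%) and by 24.2% of all tested genes. The groups did not overlap in 10 of the 49 (20.4%), and in 15.3% of all tested genes. In 8 of the 49 (16.3%) the ISOGK mice were all lower, against 7.36% of all tested genes. The median log2 fold change of the 49 was -0.0262.

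Of the genes of de novo synthesis and its control, 0 of 7 were called by edgeR, and 1 had an unadjusted p under 0.05. DESeq2 and limma-voom also called 0 of the 7. Without ISOGK mouse 3, *Cert1*, the ceramide transfer protein, was called lower (log2 fold change -0.385, edgeR adjusted p = 0.0404, against -0.176 and 0.535 with all mice). *Ormdl1*, a brake on serine palmitoyltransferase, was at 18.4 to 22.1 CPM in vehicle mice and at 14.4 to 17.97 CPM in ISOGK mice, with no overlap (a log2 fold change of -0.26 with an edgeR adjusted p of 0.169). *Sptssa*, a small activating subunit of the same enzyme, differed by 0.21 on the log2 scale (edgeR adjusted p = 0.242), and *Rtn4*, a reticulon of the endoplasmic reticulum, by 0.17 (edgeR adjusted p = 0.294). Scaling by library size alone, which shifted the median of all genes to -0.13, called *Ormdl1* lower (-0.391, adjusted p = 0.0392).

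Of the genes of sphingomyelin synthesis and breakdown, 0 of 7 were called by edgeR or limma-voom, 1 had an unadjusted p under 0.05 and DESeq2 called 1. The gene DESeq2 called was *Smpd1*, the lysosomal acid sphingomyelinase, at 46.2 to 51.6 CPM with vehicle and 39.3 to 43.3 CPM with ISOGK, or -0.25 on the log2 scale (edgeR adjusted p = 0.0849, DESeq2 adjusted p = 0.036). Scaling by library size alone in edgeR also called *Smpd1* lower (-0.38, edgeR adjusted p = 0.0209). *Smpd3*, a neutral sphingomyelinase, was low and scattered, at 0.581 to 2.69 CPM and at 1.70 to 4.91 CPM (log2 fold change 0.86, edgeR adjusted p = 0.259). Leaving out 1 mouse gave *Smpd3* log2 fold changes of 0.565 to 1.16, with 0.575 without vehicle mouse 4. *Smpd2*, also a neutral sphingomyelinase, differed by -0.11 on the log2 scale (edgeR adjusted p = 0.586). Without ISOGK mouse 3, *Samd8*, a relative of the sphingomyelin synthases, was called lower (-0.356, edgeR adjusted p = 0.0495, against -0.13 and 0.676 with all mice). *Cert1*, *Samd8* and *Sgms2* were named after their values had been seen.

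Of the 18 tested genes of glycosphingolipid synthesis and breakdown, 2 fell (11.1%, against 3.45% of all tested genes) and 0 rose. An unadjusted p under 0.05 was reached by 7 of the 18 (38.9%, against 24.2%), and in 4 of the 18 (22.2%, against 7.36%) every ISOGK mouse was below every vehicle mouse. Both genes that fell act in lysosomal breakdown, and neither takes part in synthesis. *Gm2a*, the activator protein that presents GM2 ganglioside for hydrolysis, was at 94.1, 108.0, 114.1 and 132.3 CPM in vehicle mice and at 78.4, 66.0, 78.0 and 76.1 CPM in ISOGK mice. *Gm2a* fell by 0.59 on the log2 scale (SE 0.112, edgeR adjusted p = 0.00944) and its groups did not overlap. *Glb1*, the lysosomal beta-galactosidase, was at 15.2 to 18.4 CPM with vehicle and at 10.6 to 14.0 CPM with ISOGK and fell by 0.44 on the log2 scale (SE 0.118, edgeR adjusted p = 0.0435). The call of *Glb1* was lost without any 1 of the 8 mice (log2 fold changes of -0.503 to -0.372, adjusted p of 0.0522 to 0.119). *Plekha8*, a carrier of glucosylceramide, was at 16.3 to 18.3 CPM with vehicle and at 17.2, 24.5, 22.1 and 26.2 CPM in ISOGK mice 1 to 4, with overlap through mouse 1. Its log2 fold change was 0.40 (edgeR adjusted p = 0.078), and without ISOGK mouse 1 it was 0.51 (edgeR adjusted p = 0.0153).

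Of the 17 tested genes of ceramide breakdown and sphingosine-1-phosphate, 1 rose and 1 fell, against 4.14% higher and 3.45% lower of all tested genes. The groups did not overlap in 2 genes higher and 2 genes lower with ISOGK. Among all tested genes, 15.3% did not overlap in either direction. *Aldh3a2*, the fatty aldehyde dehydrogenase that oxidizes the aldehyde left by sphingosine-1-phosphate cleavage, was at 250.1, 197.2, 268.3 and 258.8 CPM with vehicle. In ISOGK mice it was at 414.3, 408.9, 347.2 and 344 CPM, every mouse above every vehicle mouse. Its log2 fold change was 0.64 (SE 0.118, edgeR adjusted p = 0.00804). *S1pr1*, the sphingosine-1-phosphate receptor of endothelial cells and lymphocytes, was at 36.6, 37.0, 43.5 and 44.8 CPM with vehicle and at 23.4, 25.8, 25.1 and 27.3 CPM with ISOGK. *S1pr1* fell by 0.67 on the log2 scale (SE 0.0998, edgeR adjusted p = 0.00263), with no overlap between the groups. *Asah2*, neutral ceramidase, was at 17.6 to 21.0 CPM and at 12.7 to 16.8 CPM (log2 fold change -0.32, edgeR adjusted p = 0.114).

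**Figure D5:**
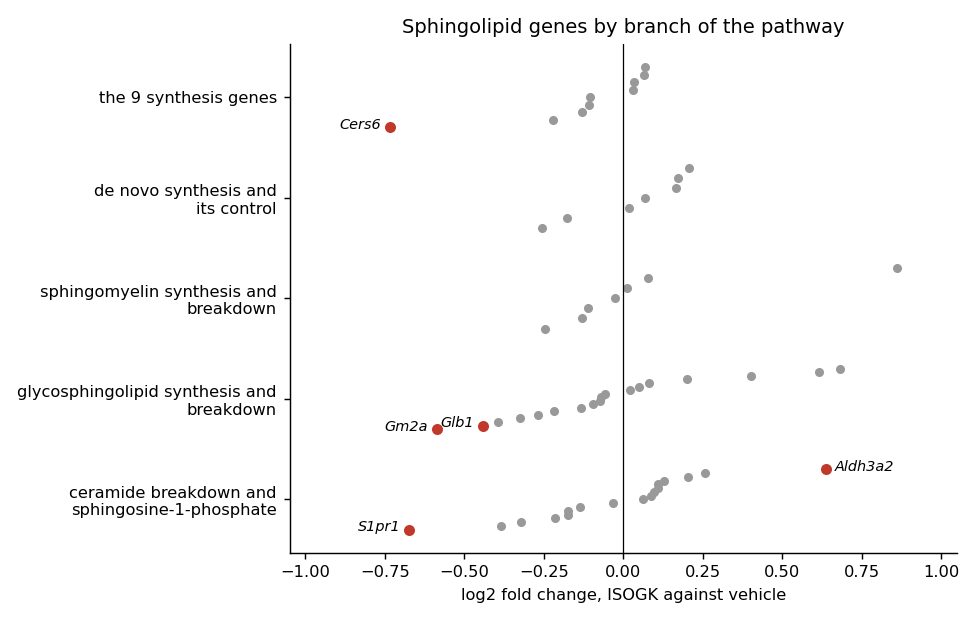
Log2 fold change, ISOGK against vehicle, of the 9 synthesis genes and of the 49 other tested sphingolipid genes by branch of the pathway. Each point is 1 gene, spread vertically only to separate points. Red points are genes called at an adjusted p under 0.05, which are 4 lower genes and *Aldh3a2*.

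Markers of the cell types a liver holds were read beside these genes. In bulk tissue, fewer cells of a type and less RNA per cell cannot be told apart. Of 10 Kupffer cell and macrophage markers, 9 had an estimate below 0 (median log2 fold change -0.452). Only *Cd68* was called lower, at 45.5 to 56.6 CPM with vehicle and 30.0 to 39.7 CPM with ISOGK. That is 1 of 10 markers, against 3.45% of all tested genes. The summed level of the list was 1396.1 to 1814.5 CPM with vehicle and 1163.5 to 1466.3 CPM with ISOGK, which overlapped. Abundant markers weigh most in such a sum. The part of these cells in the levels of *Gm2a* and *Glb1*, or in that of *Cers6*, was not tested. The 10 endothelial markers, with 0 called, summed to 436.3 to 477.8 CPM with vehicle and 420.0 to 467.6 CPM with ISOGK, beside the fall of *S1pr1*. Of 8 tested cholangiocyte markers, 0 had an estimate below 0 (median log2 fold change 0.565). Of the 8, 2 rose (*Sox9* and *Krt18*), against 4.14% of all tested genes. The list summed to 150.2 to 173.0 CPM with vehicle and 246.6 to 308.3 CPM with ISOGK. *Krt18*, which hepatocytes also express, made up most of that sum, and without it the list overlapped, at 40.6 to 49.9 and 44.9 to 86.5 CPM. Of the 10 hepatocyte and 10 stellate cell markers and 4 tested lymphocyte markers, 0 were called.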

How the data were processed

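Liver RNA of 4 vehicle and 4 ISOGK mice was sequenced, 1 library per mouse, and samples were grouped by their labels. The authors aligned single-end reads with HISAT2 and computed counts with StringTie, and the deposited values are raw counts per gene symbol, not normalized; the labels name mm10. Here 1 of 16540 rows had no gene name and was left out (at most 0.000683% of a library). Genes were filtered with filterByExpr (minimum count 10, total 15) and scaled by TMM. Tests used edgeR 4.0.16 in R 4.3.3 (quasi-likelihood, robust), with Benjamini-Hochberg adjustment over 12306 genes and no block. Log2 CPM used a prior count of 2. Genes were named by a written rule: the 9 genes, called genes of each list (at most 6), filled up to 3 by the smallest adjusted p, and the 2 genes most correlated with a called member. A gene of the lists is not reported here and is in no count of them. Members and lists were chosen with earlier results of these data known. Depth was 17457015 to 24461698 counts per library, a biological coefficient of variation of 0.164, and reads without molecular identifiers give counting error only. Alternatives were DESeq2 1.42.0, limma-voom (limma 3.58.1), RLE factors, library size alone, other filters, the non-robust test, a replicate block, a prior count of 0.5 and leaving out each mouse. The method was checked on simulated counts with equal spread in both groups, so the check does not cover the unequal spread of *Cers6*. Lengths and coordinates are from GENCODE (GRCm38).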

Additional observations from a re-analysis of the deposited data

Results flagged for a closer look

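In 42 groups of 4 mice examined for the named sphingolipid genes, 3 held a mouse whose gap to its nearest neighbour, divided by the range of the group, was over Dixon's 95% critical value, where chance gives about 2.1. *Rtn4* was at 50.9 CPM in vehicle mouse 1 against 44.8 to 45.0 CPM in the other vehicle mice (0.964). *Smpd2* was at 16.8 CPM in vehicle mouse 3 against 19.5 to 19.8 CPM (0.885). *Ormdl1* was at 14.4 CPM in ISOGK mouse 3 against 17.5 to 17.97 CPM in the other ISOGK mice (0.876).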

How the results depend on the processing

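*Cers6* kept its direction in all 16 alternatives and its call in 10, with log2 fold changes from -0.954 to -0.602 when 1 mouse was left out. No other of the 9 genes was called in any of the 16. Genes called higher numbered 510, 742 with DESeq2, 262 with library size alone and 219 to 712 without 1 mouse. Genes called lower numbered 424, 651 with DESeq2, 805 with library size alone and 160 to 523 without 1 mouse. Without 1 mouse, 0 to 1 of the 9 genes and, of the other sphingolipid genes, 1 to 2 were called higher and 2 to 4 lower, against 7 lower with library size alone. With library size alone, the sign of *Sptlc1* (-0.104), *Cers5* (-0.102), *Degs1* (-0.0598) and *Sgms1* (-0.0581) turned, beside a median of -0.13 over all genes. Leaving out 1 mouse gave -0.0354 to 0.0805 for *Sptlc1*, -0.241 to 0.00746 for *Cers4*, -0.0483 to 0.106 for *Cers5* and -0.0583 to 0.166 for *Sgms1*. The cause of these changes was not tested.

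Mice with the same replicate number did not deviate together (r from -0.0144 to 0.0849, and 2 of 8 mice correlated best with their own number). The labels state no pairing, and r near 0 over all genes cannot exclude one. With a replicate block, 411 genes were called higher and 414 lower, *Cers6* had -0.778 (adjusted p = 0.0246) and *Glb1* had -0.442 and was no longer called (adjusted p = 0.0798). Depth limits *Cers4* and *Cers5* most.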
